A study of Bos taurus with 8 samples.

Results

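The genes described here were grouped as fibrillar and fibril-associated collagens, in cultured bovine cells exposed to an HIV-1 protein. They are 8 genes, COL1A1, COL1A2, COL3A1, COL5A1, COL5A2, COL6A1, COL6A2 and COL12A1. The type VI chains among them, COL6A1 and COL6A2, form beaded microfilaments and not banded fibrils. Every array probe whose gene name in the scanner files is 1 of these 8 was taken. That gave 32 of the 51282 probes and 7 of the 8 genes, because COL5A1 had no probe by that name. The 7 genes stood among 12035 genes tested, each read from its brightest probe. The genes were chosen by name with the TAT, gp120 and control levels of these same arrays in view, so their differences between those groups are a description and carry no test.

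The cells, grown from bovine eyes for 18 to 21 days and given as primary Müller glia, formed 3 groups. In the first, 3 samples (letters A, B and C) received recombinant TAT, the viral transactivator, at 100 ng/ml for 24 h. In the second, 3 samples (A, B and C) received recombinant gp120, the envelope protein that binds CD4, at 60 ng/ml for 24 h, and the third held 2 control samples (A and B). Each sample's RNA, carrying a single dye, was hybridised to its own Agilent array. Groups follow the sample titles, since the treatment text is the same for every sample and names both proteins, and the extraction text calls the cells astrocytes. Nothing in the labels says that letters mark separate cultures or animals, so a p-value here reflects no more than the scatter among these samples, which may be technical.

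Collagens are secreted chains that wind around each other into a triple helix, in which glycine recurs at a fixed step along the chain. Types I, III and V assemble into banded fibrils, type XII decorates the surface of those fibrils, and type VI forms beaded microfilaments next to cells and basement membranes. In the retina such collagens are found around vessels and at the vitreous face, and fibrillar collagen is a known component of the scar-like membranes to which Müller glia contribute.

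The repeat can be read in the probes themselves. Of the 32 probes, each 60 bases long, 5 carried at least 6 GGN triplets (in capitals below) in a row at the spacing of the glycine codons, with a single uneven step allowed. These are shown because they lie in the helical coding part of type I and type VI chains. None is the brightest probe of its gene, so the gene levels below are not read from them. Names give the base of the transcript at which the file starts the probe, and positions are on HGSC Btau_3.1.
COL1A1 from base 2566, chr19:37646195-37646474, plus strand: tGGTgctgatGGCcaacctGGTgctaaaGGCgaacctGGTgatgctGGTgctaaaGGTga
COL1A1 from base 3019, chr19:37647299-37647502, plus strand: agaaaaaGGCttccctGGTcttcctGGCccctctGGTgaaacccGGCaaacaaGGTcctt
COL1A2 from base 2314, chr4:12044652-12044711, plus strand: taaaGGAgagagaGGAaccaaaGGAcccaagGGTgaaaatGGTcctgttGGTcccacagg
COL1A2 from base 2586, chr4:12047111-12047170, plus strand: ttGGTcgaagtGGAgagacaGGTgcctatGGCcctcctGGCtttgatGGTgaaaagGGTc
COL6A2 from base 1197, chr1:148774362-148774705, plus strand: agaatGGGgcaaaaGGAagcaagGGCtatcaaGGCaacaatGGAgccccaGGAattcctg
The triplets stood 9 bases apart in each, except for a single step of 10 bases in the COL1A1 probe from base 3019. In that probe the triplets after the step fall in another reading frame than those before it. Both COL1A1 probes and the COL6A2 probe spanned 280, 204 and 344 bases of the genome for 60 bases of probe.

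Probes of different collagens shared only short stretches. The longest run common to probes of 2 different genes was 16 bases (capitals), between COL1A2 and COL3A1, and the next longest was 11.
COL1A2 from base 3928, chr4:12053490-12053547, plus strand: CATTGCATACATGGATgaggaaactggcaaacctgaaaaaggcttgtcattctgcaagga
COL3A1 from base 4175, chr2:7741995-7742054, minus strand: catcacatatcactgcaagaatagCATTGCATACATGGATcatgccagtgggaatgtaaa
The brightest COL1A2 probe, from which that gene's level is read below, carries no row of the helical repeat.
COL1A2 from base 4123, chr4:12054392-12054451, plus strand: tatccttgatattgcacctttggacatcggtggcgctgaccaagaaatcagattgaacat
Some COL3A1 probes overlap each other, with longest identical runs of 44, 30 and 28 bases in 3 pairs, so its 10 probes are not 10 separate readings. The probes with the run of 28 start at bases 4545 and 4552, and their overlap is longer than that run.

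All 32 collagen probes were well above background on all 8 arrays. Over all probes that share was 55.5% to 64.6% per array, and 0 spots were saturated. The slide held TAT A, gp120 A, control A and control B in row 1 and the other 4 arrays in row 2. Scan 1, at a detector voltage of 471, held gp120 B and gp120 C, and scan 2, at 431, held the other 6 arrays. Levels below are log2 signals relative to the array's own 75th percentile, and each is compared only with the same probe on other arrays. The number of arrays limits the precision. In RNA from a whole culture, fewer cells of a type and less RNA per cell cannot be told apart.

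Type I collagen is the main fibril-forming collagen of connective tissue and is built from COL1A1 and COL1A2 chains. COL1A1 read 4.42, 3.97 and 4.25 on TAT arrays A, B and C, 3.78, 4.27 and 3.72 on gp120 arrays A, B and C, and 2.97 and 3.60 on control arrays A and B. Every TAT array and every gp120 array was above both controls, and the lowest value of all was control A. The mean was 4.22 ± 0.23 with TAT (SD, n = 3) and 3.29 ± 0.45 in control (SD, n = 2), a difference of 0.93 (SE 0.28), or 1.91-fold. With gp120 it was 0.64 above control (SE 0.28). Without control A the differences were 0.61 with TAT and 0.32 with gp120, and without control B 1.25 and 0.96.

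COL1A2 read 6.79, 6.35 and 6.38 with TAT, 5.93, 6.30 and 5.95 with gp120, and 5.87 and 6.04 in control. The TAT arrays did not overlap the controls or the gp120 arrays, and TAT A was the highest array. TAT minus control was 0.55 (SE 0.23), gp120 minus control 0.11 (SE 0.23) and TAT minus gp120 0.44 (SE 0.20). The controls of the 2 letters lay close together for COL1A2, whereas for COL1A1 control A was well below control B.

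COL3A1, the chain of type III collagen, which runs with type I in vessel walls and other pliable tissue, read 6.35, 6.23 and 5.79 with TAT, 5.45, 6.17 and 5.81 with gp120, and 5.88 and 5.63 in control. TAT C lay between the controls, so the groups overlapped, and gp120 A was the lowest array. The difference was 0.37 between TAT and control (SE 0.28) and 0.05 between gp120 and control (SE 0.28). This brightest probe gave the smallest TAT difference of the 10 COL3A1 probes, which ran from 0.37 to 1.12 with a median of 0.78. Over the same probes gp120 minus control ran from -0.04 to 0.99.

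COL5A2 encodes a chain of type V collagen, which sits inside type I fibrils and limits their width. It read 4.78, 3.71 and 4.12 with TAT, 3.56, 3.26 and 3.55 with gp120, and 3.34 and 3.67 in control. All TAT arrays were above all gp120 and control arrays, but TAT B exceeded control B by only 0.05. TAT minus gp120 was 0.75 (SE 0.29), TAT minus control 0.70 (SE 0.32) and gp120 minus control -0.05 (SE 0.32).

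The second COL5A2 probe gave 0.71 for TAT minus control (SE 0.37), -0.56 for gp120 minus control (SE 0.37) and 1.27 for TAT minus gp120 (SE 0.33). On it gp120 B and gp120 C read 2.77 and 2.83 while the other 6 arrays lay between 3.53 and 4.90. Those 2 gp120 arrays are the ones of scan 1, and the part of the scan in this value was not tested. COL5A2 and COL3A1 lie close together on chromosome 2 in these coordinates, on opposite strands, with the COL5A2 probes at 7722171 to 7722440 and the COL3A1 probes from 7740030.

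A single probe that the files describe as the alpha 1 chain of type V collagen, but name only by its transcript, was not counted as COL5A1. It was well above background on 4 of 8 arrays and read -3.98, -4.95 and -3.89 with TAT, -5.89, -6.88 and -4.89 with gp120, and -4.95 and -4.70 in control. Its groups overlapped between TAT and control.

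Type VI collagen forms its microfilaments from chains that include COL6A1 and COL6A2. COL6A1 read 6.53, 6.90 and 6.89 with TAT, 6.25, 7.10 and 7.10 with gp120, and 6.01 and 6.60 in control. Here the letter A array was the lowest of each group, and TAT A lay below control B. The chain stood 0.47 above control with TAT (SE 0.33) and 0.51 with gp120 (SE 0.33). With slide row as a block these were 0.07 and 0.11, without control A 0.18 and 0.22, and with scan as a block 0.47 and -0.05. Of the 7 genes only COL6A1 had a TAT mean below its gp120 mean, with a difference of -0.04 (SE 0.30) on this probe and of -0.30 to -0.04 over its 3 probes. In 6 of 14 other settings, quantile scaling among them, that difference was positive, up to 0.52 with scan as a block. It was also positive in 3 of 8 fits with a single array left out, up to 0.10.

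COL6A2 read 1.28, 0.99 and 0.91 with TAT, 0.42, 1.12 and 1.0 with gp120, and 0.12 and 1.18 in control. Control B was above TAT B and TAT C, and control A was the lowest array. TAT minus control was 0.41 (SE 0.36) and gp120 minus control 0.20 (SE 0.36). Without control A the TAT difference was -0.12. A further COL6A2 probe, assigned to another transcript of the gene and printed here because it varied least, held all 8 arrays between -1.55 and -1.18, with a TAT difference of 0.07 (SE 0.22).
COL6A2, other transcript, chr1:148785629-148785688, plus strand: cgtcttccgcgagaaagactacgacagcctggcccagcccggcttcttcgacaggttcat

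COL12A1 encodes type XII collagen, which binds along the surface of type I fibrils and links them to the matrix around them. It read 6.22, 6.13 and 6.0 with TAT, 5.40, 5.84 and 5.47 with gp120, and 4.96 and 5.80 in control. The TAT arrays lay close together, with a mean of 6.11 ± 0.11 (SD, n = 3), and above all the others, while the controls lay well apart. TAT minus control was 0.73 (SE 0.28), gp120 minus control 0.19 (SE 0.28) and TAT minus gp120 0.54 (SE 0.25). Without control A the TAT difference was 0.31, and without control B 1.15.

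**Figure D1:**
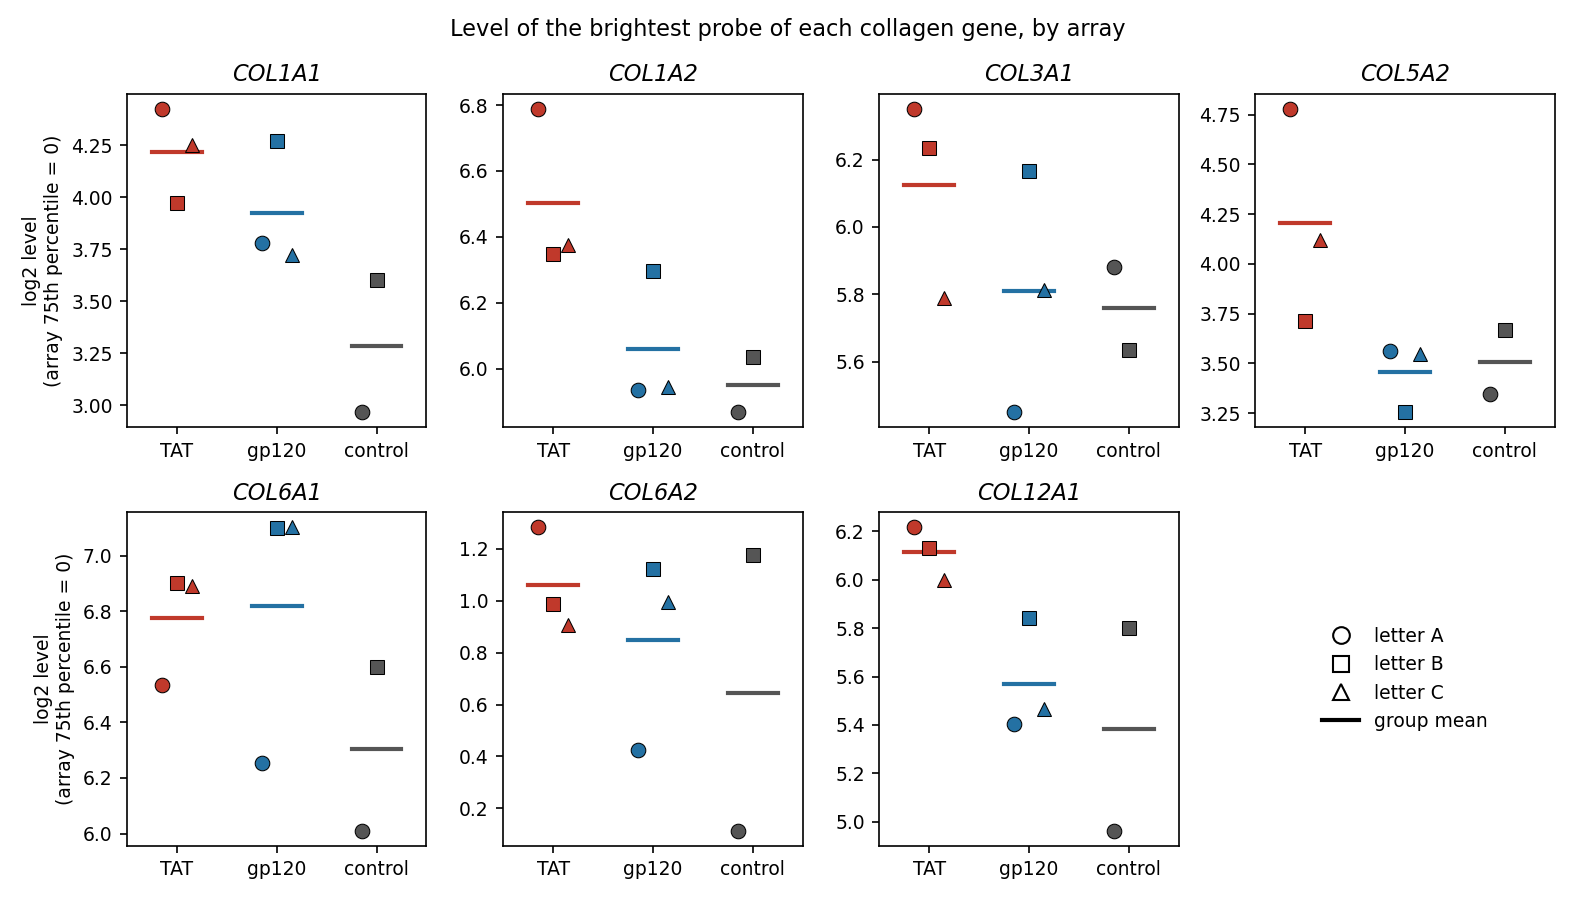
Log2 level of the brightest probe of each of the 7 collagen genes (vertical axes, array 75th percentile at 0, each panel on its own scale) on every array, with TAT, gp120 and control from left to right, letters as marker shapes and horizontal bars at group means. TAT A is the highest array in 6 of 7 panels and control A the lowest in 5.

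Set side by side, TAT minus control was above 0 for 7 of 7 collagen genes, with a median of 0.55, while the median over all 12035 genes was -0.03 and 45.5% of genes were above 0. By gene, 1.25% (COL1A1) to 10.9% (COL3A1) of all genes had a larger difference. Limma called 0 of 7 collagens and 0% of all genes at an adjusted p of 0.05 in this comparison, and 158 genes had an unadjusted p under 0.05. The higher ones among these included 3 collagens, COL1A1, COL1A2 and COL12A1, beside 0.490% of all genes. That number was 0 without control A, 1 without TAT A or without TAT C, and 1 within scan 2. The TAT arrays were all above the controls for 4 collagens, COL1A1, COL1A2, COL5A2 and COL12A1, beside 4.92% of all genes. The members were proposed from this contrast, and these counts only describe them. The median was 0.63 with slide row as a block and 0.83 within row 1, where TAT A is the only TAT array. All TAT and control arrays share scan 2. It was 0.86 without control B.

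gp120 minus control had a median of 0.19 over the 7 collagens, against -0.01 over all genes, and was above 0 for 6 of them, all but COL5A2. Limma called 0 of 7 collagens and 0% of genes, with 340 genes at an unadjusted p under 0.05. Higher at an unadjusted p under 0.05 were 0 of 7 collagens and 1.02% of genes. COL1A1 alone had all gp120 arrays above both controls, as had 5.49% of genes. The median turned to -0.02 within slide row 1, within scan 2 and with scan added as a block, settings in which gp120 A is the only gp120 array set against the controls, and it was 0.16 with slide row as a block. Without control A it was 0.02, and without control B 0.61.

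TAT minus gp120 had a median of 0.31 over the collagens, against -0.02 over all genes, and was above 0 for 6 of 7. Limma called 0 of 7 collagens and 0% of genes, and 328 genes had an unadjusted p under 0.05. COL5A2 was the 1 collagen higher with TAT at an unadjusted p under 0.05, beside 1.68% of genes. The count was 0 without TAT A, TAT C, gp120 A or gp120 C and with scan as a block, and without TAT A the COL5A2 difference was 0.46. For COL1A2, COL5A2 and COL12A1 all TAT arrays lay above all gp120 arrays, beside 3.06% of genes. With the letters taken as pairing the TAT and gp120 arrays, in a replicate block, the median stayed at 0.31. In that limma fit COL5A2 and COL12A1 were higher at an unadjusted p under 0.05, beside 4.49% of genes. This comparison depended on the arrays chosen, with a median of 0.85 within slide row 1 (1 array of each protein), 0.12 within slide row 2, 0.63 within scan 2 and 0.20 without TAT A. Both comparisons with control share the 2 control arrays, so they are set side by side without a measure of likeness.

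Within letters, most collagens differed more between TAT and control in A than in B, and letter C has no control array. TAT A and control A both lay in slide row 1, while TAT B lay in row 2 and control B in row 1. Letter and slide row therefore cannot be told apart in these pairs. Between TAT A and control A the 7 collagens differed by a median of 1.17, from 0.47 for COL3A1 to 1.46 for COL1A1, and 7 of 7 were higher with TAT. Between TAT B and control B the median was 0.31, from -0.19 for COL6A2 to 0.60 for COL3A1, with 6 of 7 higher. COL3A1 was the only gene with the larger difference in letter B. For COL5A2 the pair differed by 1.44 in letter A and 0.05 in letter B, and for COL12A1 by 1.25 in A and 0.33 in B.

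The letter pattern was another one for gp120. gp120 A and control A shared slide row and scan, while gp120 B differed from control B in both. TAT and gp120 arrays of the same letter shared a slide row, but in B and C they differed in scan. gp120 minus control had medians of 0.24 in letter A and 0.26 in letter B. COL1A1 was higher in both letters, by 0.81 and 0.67, and so was COL6A1, by 0.24 and 0.50. COL3A1 differed by -0.43 in A and 0.53 in B, and COL5A2 by 0.22 in A and -0.41 in B, so the sign of these chains was not shared between letters. TAT minus gp120 had medians of 0.85 in A, 0.05 in B and 0.43 in C. COL1A2, COL5A2 and COL12A1 were higher with TAT in all 3 letters, by 0.85, 0.05 and 0.43 for COL1A2, by 1.22, 0.46 and 0.57 for COL5A2 and by 0.81, 0.29 and 0.53 for COL12A1.

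**Figure D2:**
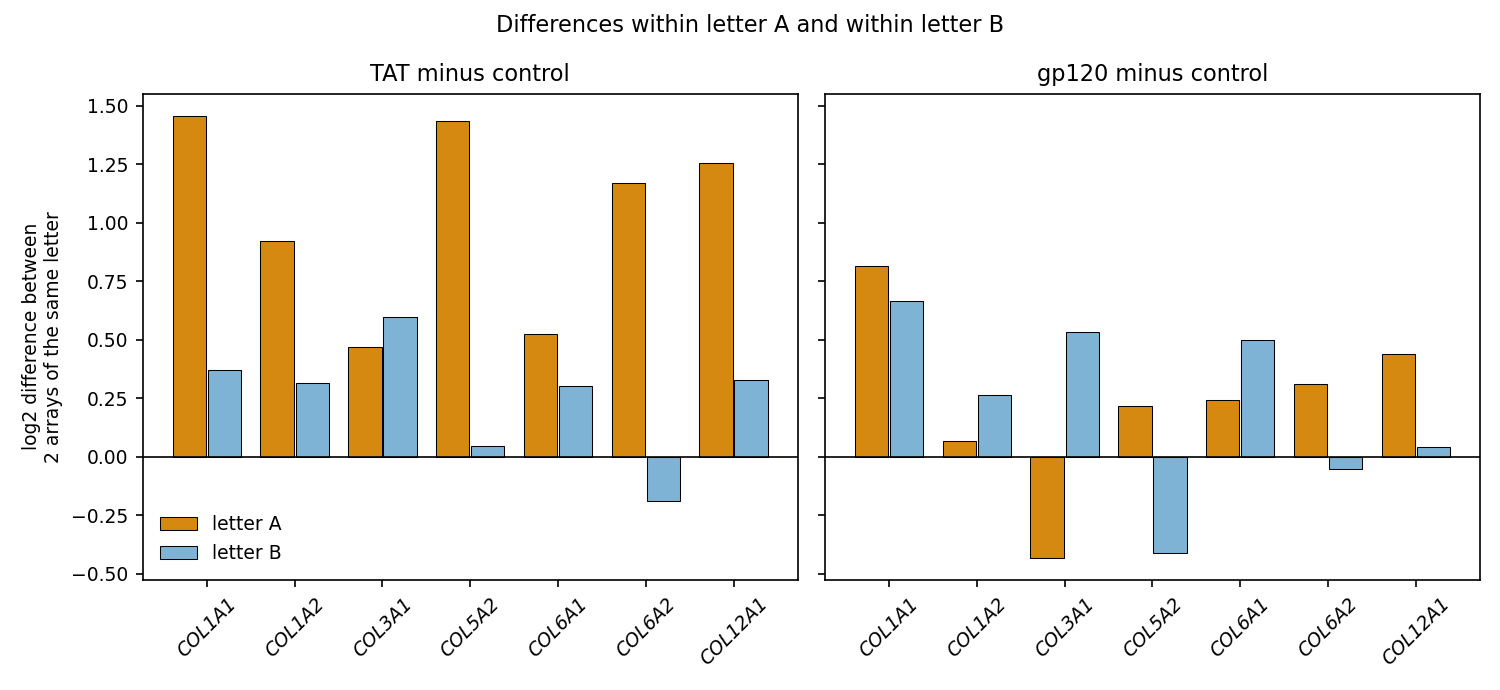
Log2 differences between arrays of the same letter for the 7 collagen genes, TAT minus control on the left and gp120 minus control on the right (bars from 0, letter A in orange, letter B in blue, 1 array against 1 array with no error bar). In letter A the TAT bars reach from 0.47 to 1.46, and in letter B they reach from -0.19 to 0.60. The letter A arrays share slide row 1, while in letter B the treated arrays lie in row 2 and control B in row 1, and gp120 B was read in another scan.

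Each collagen's level was also centred on its own mean over the 8 arrays, and the 7 values were averaged on each array. This mean was 0.48, 0.18 and 0.19 on TAT A, B and C, -0.32, 0.15 and -0.06 on gp120 A, B and C, and -0.55 and -0.07 on control A and B. The highest and the lowest arrays, TAT A and control A, thus carry the same letter. TAT A was the highest array for 6 of 7 genes, the exception being COL6A1, which was highest on gp120 C. Between pairs of collagens Pearson's r over the 8 arrays ran from -0.01 (COL5A2 with COL6A1) to 0.87 (COL1A2 with COL12A1), with 0.83 for the type I chains COL1A1 and COL1A2 and 0.72 for the type VI chains COL6A1 and COL6A2. These coefficients describe 8 arrays that share groups, letters and a slide.

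Probes other than the brightest gave the same sign with TAT. All 32 probes had a higher mean with TAT than in control, where 47.1% of the 31153 complete probes did. The TAT arrays were all above the controls on 21 of 32 probes, beside 5.60% of all probes. For gp120 28 of 32 probes were higher than in control, beside 50.6% of all probes, and 9 of 32 did not overlap, beside 8.02%. TAT was above gp120 on 28 of 32 probes, beside 45.6%, and 10 of 32 did not overlap, beside 3.34%. Probes of 1 gene share that gene, and some share bases, so these counts are not independent. The 32 include the brightest probes, and all belong to genes chosen with these arrays in view, so the counts only describe them.

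The size of the TAT difference depended on the probe. For COL1A1 it was 0.23 on the probe from base 3019 (SE 0.40), the one with the step of 10 bases, and 0.85 to 1.38 on the other 4. That probe read 0.46 on control A and -0.55 on control B, the reverse of the order on every other COL1A1 probe. The COL1A2 probes ran from 0.48 to 1.08, and the 2 helical ones printed above gave 1.08 (SE 0.43) and 1.01 (SE 0.46). On these 2 helical COL1A2 probes gp120 minus control was 0.96 (SE 0.43) and 1.03 (SE 0.46), while on the other 4 it was 0.03 to 0.27. They also start earliest in the transcript and read lowest of that gene's probes. Probes without a marked row gave 0.73 and 0.99 for COL3A1 from bases 3620 and 3690, and 1.04 for COL6A1 from base 2896. The helical COL1A1 probes from bases 2566 and 3019 gave 0.63 and 0.14, and the helical COL6A2 probe 0.40. The part of repeat, position and brightness in these values was not tested. The COL1A2 and COL3A1 probes with the shared 16-base run had TAT differences of 0.98 (SE 0.34) and 0.85 (SE 0.32), and their gp120 differences were 0.03 and 0.38. The helical COL6A2 probe had a TAT difference of 0.56 (SE 0.58) and the helical COL1A1 probe from base 2566 one of 0.85 (SE 0.33).

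**Figure D3:**
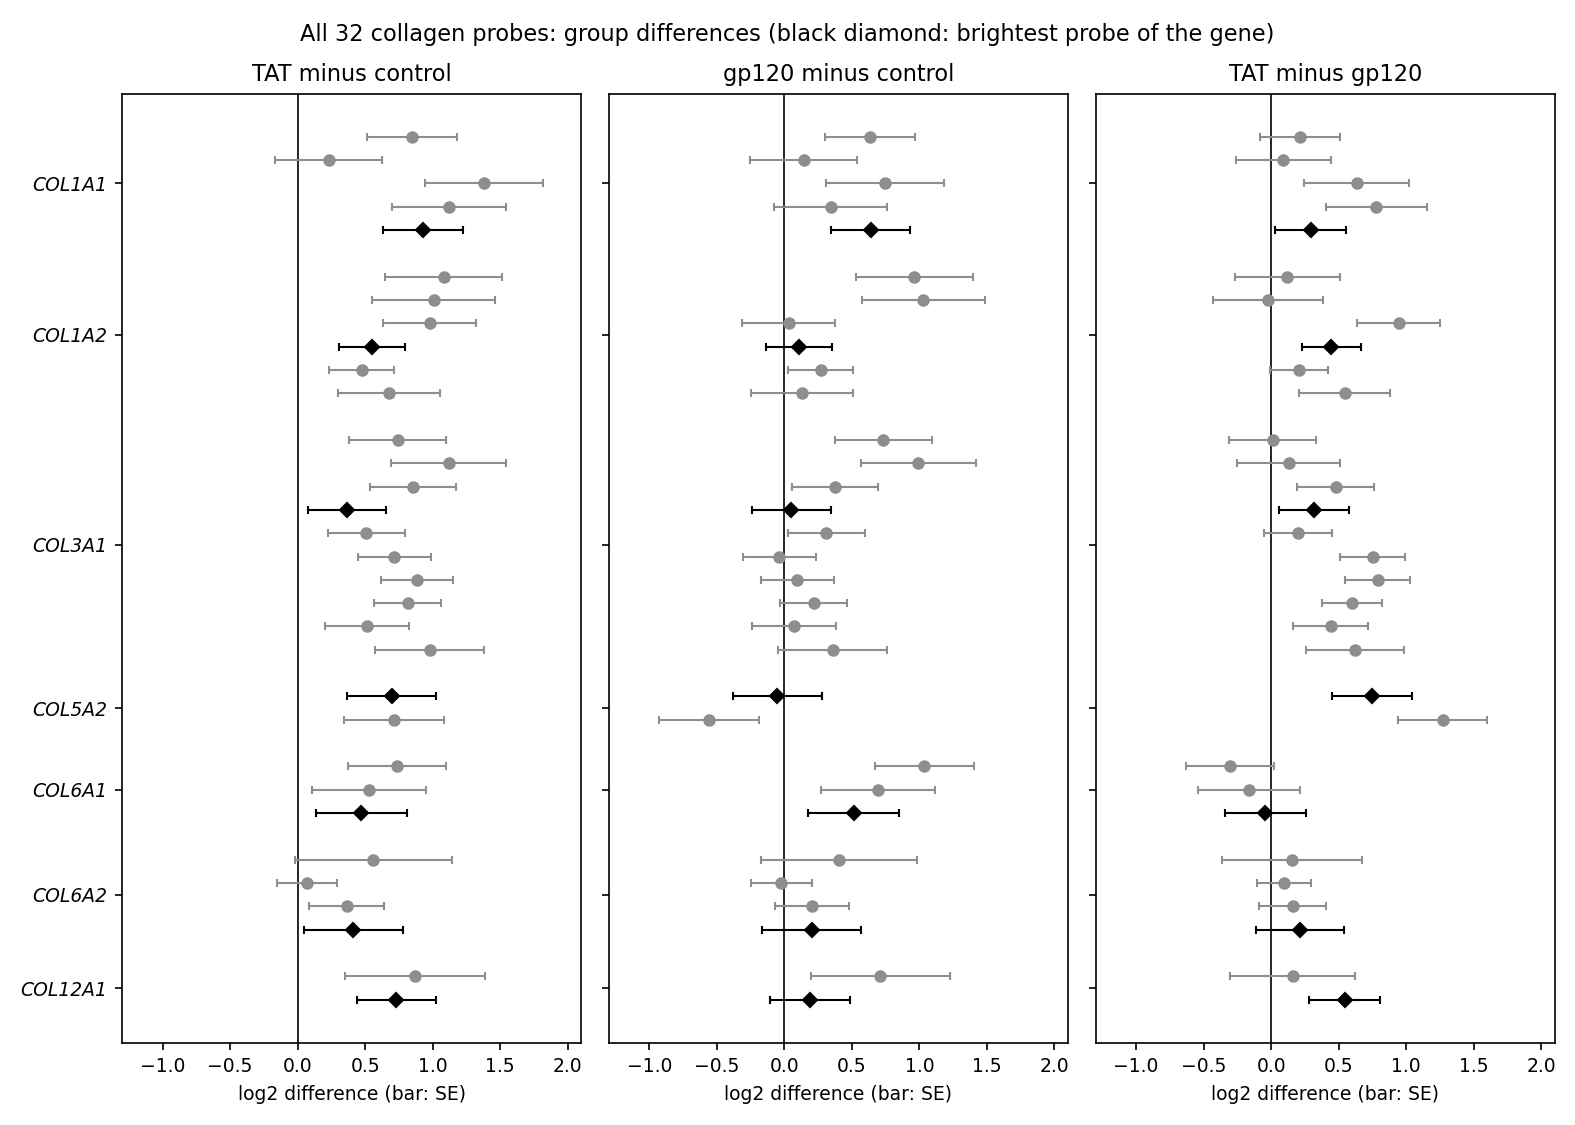
Log2 differences of all 32 collagen probes (points, bars 1 SE from the limma fit over all 8 arrays; black diamonds mark the brightest probe of each gene), for TAT minus control, gp120 minus control and TAT minus gp120. In the left panel 32 of 32 points lie right of 0, and in the right panel the 3 COL6A1 points lie left of 0.

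The difference between replicate letters is no contrast between groups, but the genes were chosen with these same arrays in view, and its independence from that choice is not shown. With the group in the fit, limma called 1889 of 12035 genes between letters A and B at an adjusted p of 0.05, or 15.7% (876 higher and 1013 lower in A), and 0 of 7 collagens. At an unadjusted p under 0.05 it gave 3966 genes and 1 collagen, COL6A1. The A minus B difference of COL6A1 was -0.60 (SE 0.16, 95% interval -0.99 to -0.21, adjusted p = 0.0526 in limma), and the A array was the lowest in all 3 groups. Larger absolute A minus B differences were found for 23.9% of genes. COL6A1 passed when normexp background correction was used or when only probes well above background on all 8 arrays were tested.

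For the other collagens the interval included 0. COL6A2 differed by -0.49 (95% interval -1.16 to 0.18), COL12A1 by -0.40 (-0.88 to 0.09), COL1A1 by -0.22 (-0.81 to 0.36) and COL3A1 by -0.12 (-0.69 to 0.45). COL1A2 stood at -0.03 (-0.49 to 0.43), and COL5A2 was the only collagen with a higher mean in A, at 0.35 (-0.30 to 1.0). Between letters C and B limma called 180 genes, or 1.50%, and again 0 of 7 collagens, with 2023 genes and 0 collagens at an unadjusted p under 0.05. All 3 letter A arrays lie in row 1 with control B, and with slide row as a block the A minus B count was 42 genes in place of 1889.

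Other genes of the collagen pathway were counted on lists of 4 kinds. Beside the counts below, 45.5% of all genes were higher with TAT than in control (0.490% at an unadjusted p under 0.05), 48.6% were higher with gp120 than in control and 46.4% with TAT than with gp120. Of 18 other collagens tested (of 36 listed), 15 were higher with TAT than in control, with a median of 0.46, and 1 (COL2A1) at an unadjusted p under 0.05. Among those on all 8 arrays the widest differences were those of COL11A1, a minor fibrillar chain, at 1.39 (SE 0.78), COL7A1, the chain of anchoring fibrils, at 1.32 (SE 0.57), and COL2A1, the cartilage and vitreous collagen, at 0.82 (SE 0.33). COL2A1 was dim, at -4.02 to -2.73 over the 8 arrays. COL27A1 and COL5A3, also fibrillar chains and named here after their values were seen, stood at -0.003 (SE 0.485) and 0.13 (SE 0.46) with TAT. With gp120 9 of the 18 other collagens were higher than in control, with a median of -0.01. TAT was above gp120 for 16 of 18, with a median of 0.36.

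Of 23 enzymes and chaperones that modify, trim or cross-link collagen, 21 were higher with TAT than in control, with a median of 0.34, and 20 were higher with gp120, with a median of 0.31. Limma gave 0 of them at an unadjusted p under 0.05 with TAT. LOXL1, LOX and LOXL2, oxidases that cross-link collagen and elastin, stood at 0.93 (SE 0.77), 0.91 (SE 0.54) and 0.91 (SE 0.41) with TAT. TAT minus gp120 was above 0 for 14 of 23, with a median of 0.09.

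Of 12 collagen receptors 8 were higher with TAT, with a median of 0.14, and 1 of them, DDR2, at an unadjusted p under 0.05 in limma. With gp120 8 were higher, with a median of 0.08. DDR2, a receptor tyrosine kinase for fibrillar collagen, was 0.88 higher with TAT (SE 0.32), ITGA10 0.64 (SE 0.29) and ITGA1 0.40 (SE 0.26). ITGA1, the alpha chain of an integrin that binds collagen IV and I, read 0.13, 0.49 and 0.69 with TAT, -0.67, -0.72 and -0.84 with gp120, and -0.26 and 0.35 in control. Its gp120 arrays lay below all the others, with TAT minus gp120 at 1.18 (SE 0.23). Of 14 proteases and inhibitors of collagen breakdown 9 were higher with TAT, with a median of 0.10. FAP, MMP1 and MMP16 stood at 0.91 (SE 0.91), 0.72 (SE 1.21) and -0.40 (SE 0.65). CTSL, a lysosomal protease named here after its value was seen, was well above background on 7 arrays and read -3.23, -2.97 and 1.13 with TAT, -5.13, 0.29 and 1.14 with gp120, and -4.38 and -5.03 in control. TAT C, gp120 B and gp120 C stood far above the other 5 arrays, and TAT minus control was 3.01 (SE 1.98).

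Between letters A and B limma called 2 of the 18 other collagens higher and 2 lower in A, 1 of the 23 processing genes higher and 3 lower, 2 of the 14 breakdown genes higher and 2 lower, and 0 of the 12 receptors, beside 15.7% of all genes. A minus B was 2.18 for COL16A1 (adjusted p = 0.019), -1.52 for COL15A1 (adjusted p = 0.0103) and -1.30 for COL4A5, a basement membrane chain (adjusted p = 0.00576). LOXL1 differed by -1.56 (adjusted p = 0.0343), ADAMTS2, which trims the ends of fibrillar procollagens, by 0.99 (adjusted p = 0.0346). P4HA3, a prolyl hydroxylase, did not pass at 1.36 (adjusted p = 0.0512). The collagenase MMP1 was 2.46 higher in A (adjusted p = 0.0479), FAP 1.91 higher (adjusted p = 0.0198) and the membrane protease MMP15 differed by -1.46 (adjusted p = 0.00642). Among receptors on all 8 arrays those with the widest values, CSPG4 (-0.83, adjusted p = 0.0796), MRC2 (0.53) and ITGA10 (0.46), did not pass. These p-values come from the limma fit over all genes.

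**Figure D4:**
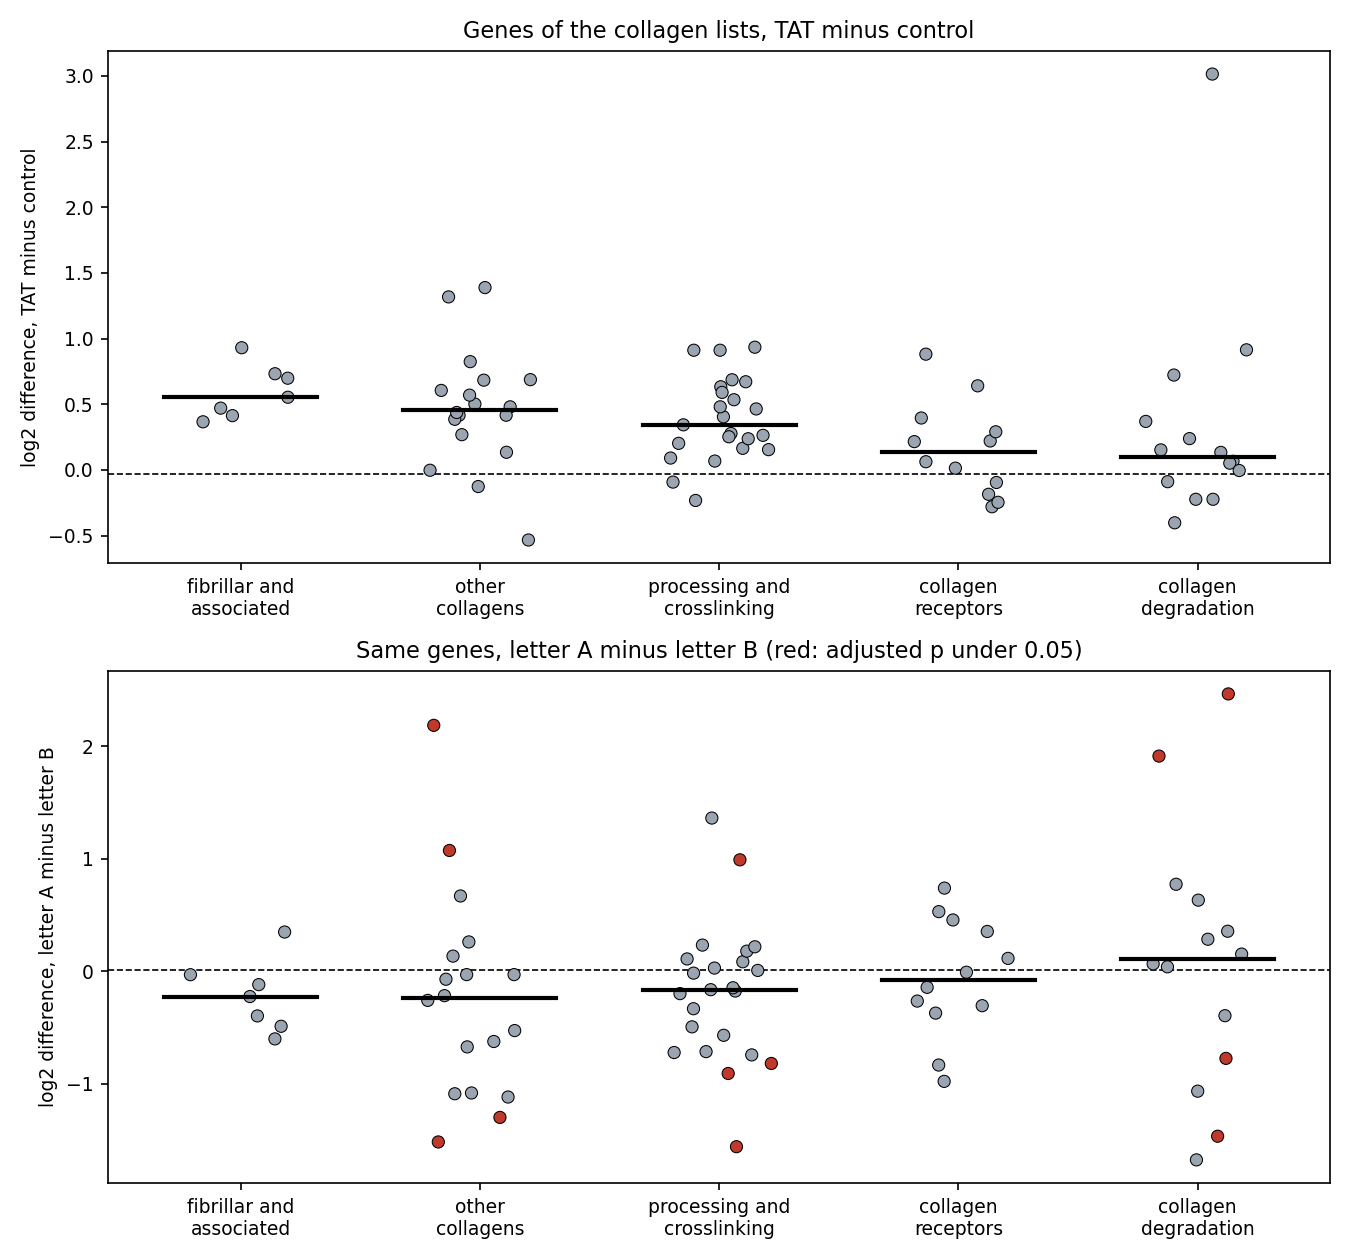
Log2 differences of single genes (points, spread sideways at random within a list) for the 7 collagens and the 4 pathway lists, TAT minus control above and letter A minus letter B below, with list medians as solid bars and the median of all 12035 genes as a dashed line. The 7 collagens run from 0.37 to 0.93 in the upper panel, and in the lower panel red points mark genes with an adjusted p under 0.05, which include 0 of the 7.

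Among the genes whose levels over the 8 arrays were most like the mean of the centred collagens were SPARCL1 (Pearson's r 0.96), LAMB1 (0.96), COL4A1 (0.95), ANKRD6 (0.94), DDR2 (0.94), SERF1B (0.94) and NCALD (0.93). Of 10801 candidate genes on all 8 arrays 0.15% had an r above 0.9. SPARCL1, a secreted glycoprotein of the SPARC family, read 4.31, 4.23 and 4.02 with TAT, 2.70, 3.94 and 3.45 with gp120, and 2.47 and 3.61 in control. Its TAT arrays lay above all the others, and control A and gp120 A were lowest. LAMB1, a laminin chain, and COL4A1, a basement membrane collagen, had TAT minus control differences of 0.55 and 0.48. The 8 points share letters, slide rows and scans, and the coefficients are a description.

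Markers of other cell types were read on the same arrays. Of 14 Müller glia markers 9 were well above background on all 8 arrays, among them GLUL, VIM and SLC1A3. RLBP1 and GFAP were above background on 2 arrays each, SOX2 on 5 and KCNJ10 on 1. Also present on all 8 arrays were 10 of 10 microglia and macrophage markers, 9 of 10 pericyte and smooth muscle markers, 8 of 12 fibroblast and stromal markers, 7 of 9 endothelial, 4 of 9 pigment epithelium and 3 of 10 neuron and photoreceptor markers. CDH5, which defines endothelium, and the pigment cell genes TYR and TYRP1 were above background on 0 arrays, and PDGFRA, a fibroblast marker, on 3. The labelled cell type is therefore not set apart from other cells by these markers.

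Fibroblast markers and pericyte and smooth muscle markers were both mostly higher with TAT than in control, as the collagens were. Of 11 fibroblast markers tested, 9 were higher with TAT than in control, with a median of 0.62, and 6 with gp120, with a median of 0.16. The summed level of the 8 markers present on all arrays, as a multiple of the array's 75th percentile, was 43.9 to 86.2 with TAT, 32 to 60.8 with gp120 and 35.9 to 37.8 in control. DCN, a proteoglycan that binds collagen fibrils, made up 54.8% to 73.8% of that sum per array. The mean log2 level of the 8 markers was 0.62 to 1.48 with TAT, 0.17 to 0.72 with gp120 and 0.24 to 0.37 in control, and TAT A was the highest array by both measures. The summed level of 9 pericyte markers was 226 to 388 with TAT, 179 to 467 with gp120 and 142 to 298 in control. That of 9 Müller glia markers was 256 to 286 with TAT, 261 to 323 with gp120 and 234 to 318 in control. ACTA2 made up 47.1% to 58.6% of the pericyte sum per array, and VIM 49.4% to 60.4% of the Müller glia sum. Of the 9 pericyte markers 8 were higher with TAT than in control, with a median of 0.54, and 8 with gp120, with a median of 0.41. The letter A array had the lowest pericyte sum in each group. Between letters A and B, 8 of these 9 were lower in A, with a median of -0.88. Of the 11 fibroblast markers 8 were higher in A (median 0.37), whereas 6 of 7 collagens were lower (median -0.22). Limma called 5 pericyte markers and 1 fibroblast marker between A and B, beside 15.7% of all genes. With TAT 5 of 7 endothelial markers were higher (median 0.37), 3 of 9 Müller glia markers (median -0.10) and 5 of 10 microglia markers (median -0.04). The part of these cell types in the collagen values was not tested, and FAP stands on both the fibroblast and the breakdown list.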

How the data were processed

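Scanner output was deposited as intensity, made by the authors in Agilent Feature Extraction 11.5.1.1, protocol GE1_1105_Oct12, per the file headers. Background had been subtracted and arrays were not scaled to each other. A second deposited file lists log2 values by gene name, with column medians of -3.33 to -3.18. Its making and centring are not given in the sources used here, and it served as an alternative.

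Here the log2 of gProcessedSignal was taken, less the 75th percentile of its array, without control and outlier spots (4 to 37 per array). A probe was kept if some group had it well above background on all of its arrays, which held for 31196 of 51282 probes, 31153 of them complete. The bovine RefSeq gene table gave names by accession (28112), symbol (6484) or synonym (160), 746 kept the file's name and 15780 stayed unnamed. The brightest probe stood for each of 12035 genes. Sequences and positions (HGSC Btau_3.1) are those of the files.

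Limma 3.58.1 in R 4.3.3 (lmFit, eBayes, two-sided, Benjamini-Hochberg over all genes, threshold 0.05) was fitted to all 8 arrays, for the groups and, with the group as a factor, for the letters. The code was first run on simulated data, drawn independently for each array and with less scatter than these arrays. That run does not show how the fit performs at the scatter of these data. Other tools were data.table (1.17.8), Python 3.11.15, pandas 2.3.3, numpy 2.4.6 and matplotlib 3.10.9. Deviations from group means correlated at 0.706, 0.475 and 0.74 between TAT and gp120 arrays of letters A, B and C, and these arrays were taken as paired on that ground. Such deviations cancel within a group, which by itself lowers the correlations between different letters. TAT A and gp120 A are also the only arrays of their groups in slide row 1, so letter A cannot be told apart from slide row there. Control has 2 letters, too few for this check, and over all groups same-letter arrays gave 0.377 to 0.74 and others -0.654 to 0.417.

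The members and lists were chosen with earlier results of these data known. Named are all members, the 3 genes of each pathway list with the widest TAT minus control and the widest letter difference among those on all 8 arrays, and the 8 genes most like the members, of which 1 is not reported here. Where the letters' meaning is not given, arrays count as replicates by title. Alternatives covered background correction, scaling, the value table, the dim-probe filter, the probe rule, slide row, scan, letters and each array left out. Values within slide row 2 were added after seeing the data.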

Additional observations from a re-analysis of the deposited data

How the results depend on the processing

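Leaving aside values equal to the reported one, as many settings repeat it by construction, TAT minus control was above 0 in 97 of 98 alternative values of single collagens, the exception being COL6A2 at -0.118 without control A. gp120 minus control was above 0 in 80 of 111 and TAT minus gp120 in 102 of 111. The alternatives reuse the same arrays and mostly the same probes, so these values are not independent. The genes were chosen with these groups in view, and the counts of signs only describe them. With single arrays left out, the median over the collagens ran from 0.41 (without TAT A) to 0.86 (without control B) for TAT minus control, from 0.024 (without control A) to 0.607 (without control B) for gp120 minus control, and from 0.201 (without TAT A) to 0.494 (without gp120 B) for TAT minus gp120. In the deposited log2 values these medians were 0.818, 0.347 and 0.514. TAT minus gp120 was 0.634 within scan 2, a value shared by the scan block, 0.854 within slide row 1 and 0.117 within slide row 2. With the replicate block the 3 medians were 0.613, 0.203 and 0.315 and 0 genes passed in any comparison, while 576, 722 and 988 genes had an unadjusted p under 0.05 in place of 158, 340 and 328. Collagens higher at that p then numbered 3, 0 and 2, beside 2.3%, 2.33% and 4.49% of genes. With the replicate block and scan together they were 0.647, -0.049 and 0.583.

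Genes passing an adjusted p of 0.05 in limma numbered 4 for TAT minus control, 4 for gp120 minus control and 16 for TAT minus gp120 in the deposited log2 values, with 0 collagens among them. With single arrays left out they numbered 0 to 1, 0 to 1 and 0 to 4. For letter A minus letter B the count was 754 in the deposited log2 values, 1041 with no filter on dim probes, 388 within scan 2, 827 with scan as a block, 42 with slide row as a block and 1020 with letters A and B only, and it ran from 667 (without either control) to 1043 (without TAT A) with single arrays left out. Collagens called there numbered 1 (COL6A1) with normexp background correction and 1 with only probes well above background on all 8 arrays. Where a group is left with 1 array, that array is assumed to vary like the other groups. The causes of these changes were not tested.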
